A study of Homo sapiens with 12 samples.

Results

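The genes described here encode 10 regulators of G protein signalling, the RGS proteins RGS1, RGS2, RGS3, RGS4, RGS5, RGS10, RGS12, RGS16, RGS17 and RGS19, out of 16186 genes measured on both array platforms. Every probe annotated to 1 of these symbols and to no other gene was taken, which gave 34 probe sets on AFFX (Affymetrix HGU133plus2) and 13 probes on ABI (Applied Biosystems Human Genome Survey arrays). The 10 genes were selected on measured values, since they were proposed with their treated against control signals on these same arrays known. For that reason the contrast is given for them as a description, with standard errors and without p-values.

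RGS proteins switch off signals that pass from G protein coupled receptors to the cell interior. A receptor that is bound by its ligand loads GTP onto a G alpha subunit, and the RGS domain speeds the hydrolysis of that GTP, so that the G alpha subunit returns to its resting state with G beta and gamma. RGS1, RGS2, RGS3, RGS4, RGS5 and RGS16 belong to the R4 subfamily, in which most members are small proteins with little beside the RGS domain. RGS10 and RGS12 belong to the R12 subfamily and RGS17 and RGS19 to the RZ subfamily. RGS2 acts mainly on G alpha q, and several R4 genes are known as early response genes whose mRNA is made and lost quickly.

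RNA came from A2780, an established human ovarian carcinoma cell line, either left untreated (control) or exposed to 3 µM of a cell cycle inhibitor (treated), both at 6 hours. The compound is not named in the sources used here. On each platform 3 control and 3 treated arrays were read, 12 arrays in all. The 3 cultures of each condition had been pooled before the RNA was split into aliquots, so that arrays of a condition are technical replicates, and errors below measure only the technical spread between arrays of 1 pool per condition. Only cells still attached to the plate were harvested, per the study's methods. Array medians were between 5.37 and 5.47 on the log2 scale on AFFX and between 1.06 and 1.19 in linear units on ABI, and the median SD between replicates was 0.0976 (control) and 0.113 (treated) on AFFX against 0.261 and 0.298 on ABI, both in log2 units. No depth applies to arrays, and their number limits the precision.

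Of the markers checked for the labelled cell type, the mesenchymal genes VIM and CDH2 were bright, with CDH2 above 96.5% of AFFX probe sets in control arrays and VIM at 13.71 on the log2 scale, while the epithelial genes EPCAM and CDH1 were brighter than only 27.6% and 26.4%. The other markers of the list were spread between these, with PAX8 above 80.5% of AFFX probe sets, KRT7 above 75.3%, KRT8 above 63.5%, KRT18 above 59.5%, KRT19 above 35.3%, MUC16 above 23.6% and WT1 above 18.4%. On ABI, PAX8 was above 42.9% and KRT7 above 43.8% of probes. In this list limma called VIM lower on AFFX (-1.51), though its brightest probe set hardly differed (13.71 in control and 13.63 in treated). On ABI it called KRT18 lower (-0.87) and MUC16 higher (1.16). These calls, too, were named after their values were seen. Leukocyte genes, which the line should lack, gave a reference for dim probes, with a median control signal of 4.44 (34 probe sets) on AFFX and -1.20 (25 probes) on ABI on the log2 scale. The summed linear signal of those leukocyte probes was 999 to 1030 in control and 1140 to 1270 in treated AFFX arrays, and 25 to 30.7 in control and 38.6 to 47.6 in treated ABI arrays. Limma called 0 of the 16 leukocyte genes on AFFX, where 0 were lower and 8 higher at an unadjusted p under 0.05 and the methods' t-test called 0. SPI1 and NKG7, named after their values were seen, were called higher among 17 on ABI. Several RGS genes are best known from leukocytes, and the part of such cells in the RGS changes was not tested. In bulk RNA, fewer cells of a type and less RNA per cell cannot be told apart.

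RGS1, RGS2 and RGS16 have a single start site each in the RefSeq promoter table (GRCh38.p14) and were lower on both platforms, so the 250 bases before their starts are shown, 5′ to 3′ on the gene's strand. RGS13 lies between RGS1 and RGS2 on chromosome 1 and was not called on either platform, though some of its AFFX probe sets were dim. Its window is shown for comparison. Capitals mark the TATA box hexamer TATAAA and its variants with CATAAA or with TTTAAA, the pentamer TGACG found in cyclic AMP response elements, the CCAAT box, and the GC box GGGCGG, each on either strand and with no overlap between matches.
RGS1 (chr1:192575523-192575772, plus strand): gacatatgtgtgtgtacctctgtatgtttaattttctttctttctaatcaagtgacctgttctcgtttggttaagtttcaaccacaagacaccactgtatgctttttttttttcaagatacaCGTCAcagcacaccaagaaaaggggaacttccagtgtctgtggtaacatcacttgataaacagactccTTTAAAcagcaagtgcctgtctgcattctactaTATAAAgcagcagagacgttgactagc
RGS2 (chr1:192808789-192809038, plus strand): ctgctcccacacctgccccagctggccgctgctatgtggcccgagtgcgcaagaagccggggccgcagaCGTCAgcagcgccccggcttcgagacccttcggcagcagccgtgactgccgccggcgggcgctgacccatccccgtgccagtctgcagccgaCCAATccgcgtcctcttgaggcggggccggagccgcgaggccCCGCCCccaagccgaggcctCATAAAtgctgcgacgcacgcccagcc
RGS16 (chr1:182604390-182604639, minus strand): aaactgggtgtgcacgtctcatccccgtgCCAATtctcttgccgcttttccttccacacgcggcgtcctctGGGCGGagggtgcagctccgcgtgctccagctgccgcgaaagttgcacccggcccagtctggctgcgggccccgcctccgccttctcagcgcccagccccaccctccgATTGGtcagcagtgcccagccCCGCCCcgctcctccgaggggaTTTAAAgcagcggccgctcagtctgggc
RGS13 (chr1:192635897-192636146, plus strand): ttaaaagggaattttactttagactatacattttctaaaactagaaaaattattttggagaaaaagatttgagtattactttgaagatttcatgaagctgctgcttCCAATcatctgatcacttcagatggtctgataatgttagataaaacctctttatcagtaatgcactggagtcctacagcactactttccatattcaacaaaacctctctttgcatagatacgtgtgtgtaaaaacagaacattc

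A TATA-like hexamer stood 27 to 22 bases before the start in RGS1 (TATAAA) and RGS2 (CATAAA), and 28 to 23 bases before it in RGS16 (TTTAAA). RGS1 held a second one, TTTAAA, 60 to 55 bases before the start. TGACG was found on the opposite strand 128 to 124 bases before the start of RGS1 and 181 to 177 bases before that of RGS2, and not in the RGS16 window. CCAAT was found 89 to 85 bases before the start of RGS2 and in RGS16 at 221 to 217 bases and, on the opposite strand, at 71 to 67 bases. The GC box stood 47 to 42 bases before the start of RGS2 on the opposite strand, and in RGS16 at 179 to 174 bases and, on the opposite strand, at 50 to 45 bases. The RGS13 window held only a CCAAT, 144 to 140 bases before the start. Windows not printed show that such matches were not limited to genes that fell. RGS4, near the dim end and called on neither platform, has 4 start sites. Before a start site of RGS4, TATAAA stood at 30 to 25 bases and TGACG, on the opposite strand, at 139 to 135 bases. RGS17, also called on neither platform and with a single start site, held only GC box matches. GC content was 39.2% for RGS1, 72.8% for RGS2, 68.4% for RGS16 and 32% for RGS13. Of all 35116 start windows of the same length, 10.7% held TATAAA, 9.64% CATAAA, 11.3% TTTAAA, 21.2% TGACG, 32% CCAAT and 42.6% GGGCGG on either strand. These shares count each motif alone and at any position in the window, so they give no background for the positions above. These are matches of letters, with no binding measured.

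Counted with 1 probe per gene, 5 of the 10 RGS genes were lower in treated cells on AFFX (RGS1, RGS2, RGS3, RGS16 and RGS19), and 4 of them (all but RGS19) were also lower on ABI. RGS5 was called higher on ABI alone, a call that was lost in 3 of the alternatives tried. A gene was called when limma gave an adjusted p under 0.05 over all probes of the platform and the change was at least 1.5-fold, and the probe kept was that with the lowest p by the methods' t-test. By the same rule 14.2% of all AFFX genes were lower and 2.49% higher, 14.8% of all ABI genes were lower and 6.31% higher, and among genes shared by the platforms 10.5% were lower, and 0.42% higher, on both. Nothing is read from the RGS counts against these shares, because that contrast chose the genes. The median log2(Fold Change) of the 10 genes was -0.33 on AFFX and -0.62 on ABI, beside 0.16 and 0.09 over all genes. By probe, 7 of 34 AFFX probe sets (background 8.95%) and 4 of 13 ABI probes (background 10.1%) were lower. Limma called 0 AFFX probe sets higher (background 1.75%), and so did the methods' t-test for genes, while without the fold limit RGS5 and RGS12 were called higher there. Among ABI probes 1 was higher (background 7.71%). RGS4, RGS10, RGS12 and RGS17 were called on neither platform.

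**Figure D1:**
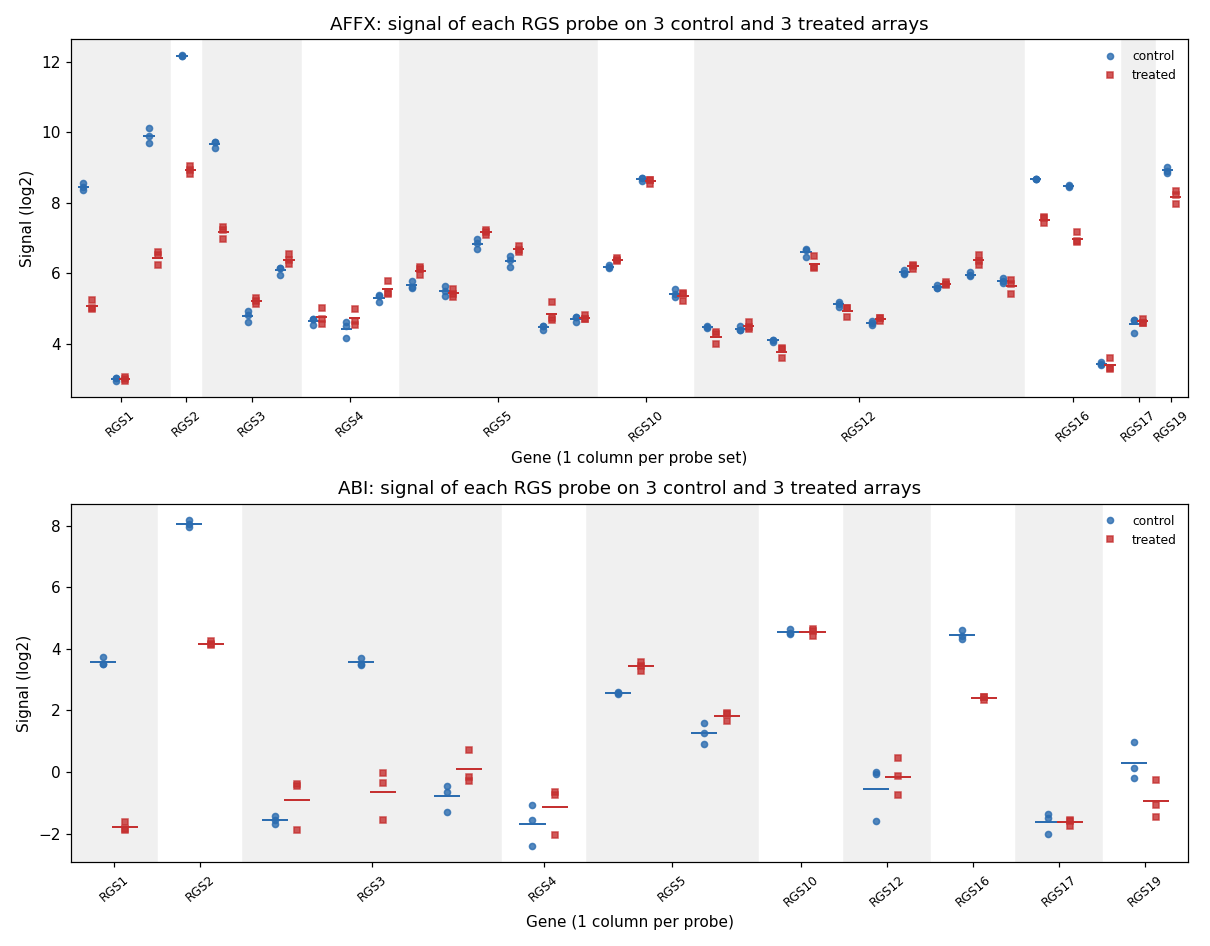
Log2 signal of every RGS probe on the 3 control arrays (circles) and 3 treated arrays (squares) of AFFX (upper panel) and ABI (lower panel), with 1 column per probe and a line at each group's mean. RGS1, RGS2, RGS3 and RGS16 each have at least 1 probe on each platform with all treated arrays far below all control arrays, and RGS1 on ABI goes from a mean of 3.59 to -1.79.

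RGS1 (Entrez Gene ID 5996), a regulator best known from lymphocytes, where it dampens signalling from chemokine receptors, was lower on both platforms. On AFFX, probe set 202988_s_at read 8.57, 8.44 and 8.35 (log2 signal) on the control arrays and 5.01, 5.24 and 4.98 on the treated arrays. Its mean went from 8.45 ± 0.110 to 5.08 ± 0.138 (SD, n = 3), and its log2(Fold Change) was -3.38 (standard error 0.0983), or 10.4-fold lower. The groups were far apart and each was tight. In treated arrays this probe set was brighter than 23 of the 34 leukocyte probe sets, so that its treated signal lay within the dim range, and with 16 linear units added to every signal before taking log2 its log2(Fold Change) was -2.88.

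A second RGS1 probe set, 216834_at, was brighter, at 10.12, 9.88 and 9.69 in control and 6.51, 6.59 and 6.22 in treated arrays. Its log2(Fold Change) was -3.46 (standard error 0.127), close to that of the first. The remaining RGS1 probe set, 202989_at, read 2.94, 3.03 and 3.04 in control and 2.99, 2.94 and 3.05 in treated arrays, with overlapping groups and a difference of -0.01. In control it was brighter than only 5 of the 34 leukocyte probe sets, so that it lay in the dim range in both conditions. The AFFX value of RGS1 therefore rests on the pair of bright probe sets.

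On ABI the RGS1 probe 137679 read 3.73, 3.52 and 3.52 (log2 signal) in control arrays and -1.64, -1.89 and -1.84 in treated arrays. The means were 3.59 ± 0.122 and -1.79 ± 0.129 (SD, n = 3), a log2(Fold Change) of -5.38 (standard error 0.139), or 41.7-fold. RGS1 was brighter than all 25 leukocyte probes in control arrays and brighter than 4 of them in treated arrays. The treated signal was thus within the range of genes the line should lack, and the size of the fold on ABI depends on how that low end is read. With 0.5 linear units added to every signal before taking log2, the log2(Fold Change) of RGS1 was -3.99. Ordered from the lowest log2(Fold Change), RGS1 was number 6 of 17192 genes on ABI and number 28 of 19777 on AFFX.

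RGS2 (Entrez Gene ID 5997), which limits signalling through G alpha q, had a single probe on each platform. AFFX probe set 202388_at read 12.18, 12.15 and 12.16 in control arrays and 8.93, 9.05 and 8.80 in treated arrays. The control arrays were close together and all treated arrays were below them. The log2(Fold Change) was -3.24 (standard error 0.0884), or 9.43-fold lower.

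On ABI the RGS2 probe 116793 read 8.19, 7.96 and 8.07 in control and 4.17, 4.11 and 4.24 in treated arrays, a log2(Fold Change) of -3.90 (standard error 0.125), or 14.9-fold. RGS2 stayed brighter than every leukocyte probe in treated arrays of both platforms. Its fall was therefore measured with signal on both sides. It was number 37 from the lowest log2(Fold Change) on AFFX and number 54 on ABI.

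RGS3 (Entrez Gene ID 5998), an R4 protein made in several isoforms of different length, fell in 1 probe per platform while its other probes did not. AFFX probe set 203823_at read 9.73, 9.55 and 9.72 in control and 6.98, 7.22 and 7.31 in treated arrays, a log2(Fold Change) of -2.49 (standard error 0.103), or 5.63-fold lower. On ABI, probe 221266 read 3.69, 3.50 and 3.49 in control and -0.04, -0.36 and -1.56 in treated arrays, a log2(Fold Change) of -4.21 (standard error 0.406), or 18.5-fold lower. The third treated array lay well below the other treated arrays, and all lay below control. In treated arrays that probe was brighter than 18 of 25 leukocyte probes, and with 0.5 linear units added its log2(Fold Change) was -3.40.

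The other RGS3 probe sets on AFFX differed by 0.43 (220300_at, standard error 0.0984) and 0.30 (232223_at, standard error 0.101) on the log2 scale, with all treated arrays above all control arrays, and neither reached the 1.5-fold limit. In control arrays 232223_at was brighter than 30 of 34 leukocyte probe sets. There 220300_at was brighter than only 20 of 34, near the dim end, which limits what fall it could show. The other RGS3 probes on ABI differed by 0.88 (235375, standard error 0.36) and 0.64 (141979, standard error 0.426), and neither was called. The 95% intervals of these ABI differences included 0 (-0.02 to 1.77 and -0.42 to 1.70), and the probes were brighter in control than only 17 and 9 of 25 leukocyte probes. With ribosomal centring 232223_at and 141979 were each at 0.03, 220300_at was at 0.16 and 235375 at 0.27. With median scaling on AFFX, 220300_at and 232223_at were at 0.37 and 0.25. With quantile scaling on ABI, 141979 and 235375 were at 0.51 and 0.86. The fall was thus not seen in the other RGS3 probes on either platform, and the size of their positive differences depends on the scaling. Which transcripts each probe reads was not looked up here. Without the second treated ABI array, the probe with the lowest p was no longer 221266 but another one, called higher at 1.13, while 221266 itself stayed between -4.52 and -3.76 whichever array was left out.

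RGS16 (Entrez Gene ID 6004), an R4 protein that acts on G alpha i and G alpha q, fell less. AFFX probe set 209324_s_at read 8.68, 8.66 and 8.67 in control arrays and 7.58, 7.42 and 7.56 in treated arrays, a log2(Fold Change) of -1.15 (standard error 0.0819), or 2.22-fold. Probe set 209325_s_at read 8.49, 8.43 and 8.46 against 6.87, 6.91 and 7.16, a log2(Fold Change) of -1.48 (standard error 0.095), or 2.79-fold. In each, the control arrays were nearly identical and the treated arrays lay below them. The remaining RGS16 probe set, 242212_at, was dim and differed by -0.03. ABI probe 173025 read 4.62, 4.42 and 4.33 in control and 2.34, 2.43 and 2.45 in treated arrays, a log2(Fold Change) of -2.05 (standard error 0.134), or 4.14-fold lower.

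RGS19 (Entrez Gene ID 10287), an RZ protein also called GAIP after its binding to G alpha i3, fell by the smallest amount among the 5 genes called on AFFX. Probe set 204336_s_at read 9.00, 8.89 and 8.85 in control and 8.32, 8.22 and 7.97 in treated arrays, a log2(Fold Change) of -0.74 (standard error 0.103), or 1.67-fold. On ABI, probe 178139 read 0.96, 0.12 and -0.18 in control and -1.06, -0.27 and -1.47 in treated arrays. There the groups did not overlap but were close, and the log2(Fold Change) of -1.24 (standard error 0.428) was not called. That probe was brighter than 21 of 25 leukocyte probes in control and 15 of 25 in treated arrays. RGS17, the other RZ gene among the 10, was dim (brighter in control than 18 of 34 leukocyte probe sets on AFFX and 9 of 25 probes on ABI), with differences of 0.08 (standard error 0.11) on AFFX and -0.01 (95% interval -0.50 to 0.49) on ABI. Levels of RGS17 overlapped between the groups on each platform.

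RGS5 (Entrez Gene ID 8490), a marker of pericytes in tissues, differed in the opposite direction. ABI probe 192935 read 2.59, 2.54 and 2.58 in control arrays and 3.57, 3.44 and 3.28 in treated arrays, a log2(Fold Change) of 0.86 (standard error 0.13), or 1.82-fold higher. The groups were separate by more than the spread of either. With each array centred on its ribosomal protein genes the difference was 0.25 and was not called, and a limit of 2-fold also ended the call. The other ABI probe, 222577, differed by 0.57 (standard error 0.209) and was not called. On AFFX the 6 probe sets of RGS5 differed by -0.07 to 0.42. The largest, 1555725_a_at, read 5.61, 5.59 and 5.77 in control and 6.11, 5.94 and 6.17 in treated arrays. It was under the 1.5-fold limit. Of the 16 fibroblast, endothelial and pericyte markers, limma called PDGFRA lower and ACTA2 and COL1A1 higher on ABI, and COL1A2 and COL3A1 lower and CLDN5 higher on AFFX (named after their values were seen). The collagen calls on AFFX came from single probe sets, since the brightest probe sets of COL1A2 (11.23 in control and 11.26 in treated) and COL3A1 (12.23 and 12.28) hardly differed, and on ABI they differed by 0.26 and 0.21 without a call. For COL1A1 the brightest ABI probe was at -0.11 in control and -0.09 in treated arrays. PDGFRA was not called on AFFX by the probe set kept (0.53), while its brightest probe set there went from 10.05 to 9.02. The summed linear signal of the 16 markers was 724 to 841 in control and 1120 to 1260 in treated ABI arrays, and 24700 to 26100 and 25400 to 28100 on AFFX. On ABI the sum was dominated by ACTA2, whose log2 mean was 8.90 in control and 9.70 in treated arrays. The pericyte marker PDGFRB was at 3.59 and 3.56 on ABI (log2 means). The part of these markers in the RGS5 difference was not tested.

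RGS4 (Entrez Gene ID 5999), known from neurons and heart, was near the dim end, with control signals brighter than 17 to 26 of 34 leukocyte probe sets on AFFX and 8 of 25 probes on ABI. Its 3 AFFX probe sets differed by 0.11 to 0.31, and its ABI probe, with control arrays at -1.06, -1.56 and -2.40 and treated arrays at -0.74, -2.06 and -0.64, differed by 0.52 (standard error 0.516). Its 95% interval on ABI, -0.76 to 1.81, was wider than the 1.5-fold limit. RGS10 (Entrez Gene ID 6001), an R12 protein of little more than the RGS domain, was called on neither platform. The AFFX probe set kept for it, 204316_at, read 6.14, 6.18 and 6.22 in control and 6.34, 6.42 and 6.38 in treated arrays, a difference of 0.20 (95% interval 0.02 to 0.37) with groups that did not overlap. Its brightest AFFX probe set, 204319_s_at, read 8.62, 8.69 and 8.69 in control and 8.64, 8.65 and 8.52 in treated arrays. The groups overlapped and the 95% interval of the difference was -0.24 to 0.12. ABI probe 128800 read 4.49, 4.52 and 4.63 against 4.63, 4.42 and 4.58, a difference of 0.00 (95% interval -0.31 to 0.31). The remaining RGS10 probe set differed by -0.06.

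RGS12 (Entrez Gene ID 6002), a large R12 protein with other domains beside the RGS domain, had 10 AFFX probe sets, which differed by -0.34 to 0.40, 5 below 0 and 5 above. None was called, and the probe kept for the gene, 214362_at, read 5.94, 5.91 and 6.03 in control and 6.52, 6.35 and 6.22 in treated arrays. The ABI probe of RGS12 read -0.07, 0.01 and -1.60 in control and 0.46, -0.14 and -0.76 in treated arrays, which overlapped. Directions of RGS4, RGS5, RGS10, RGS12 and RGS17 hold for the deposited scaling. Centring on ribosomal protein genes changed the median over all genes to -0.20 on AFFX (0.16 before) and to -0.58 on ABI (0.09 before), and many of these small differences then changed sign.

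**Figure D2:**
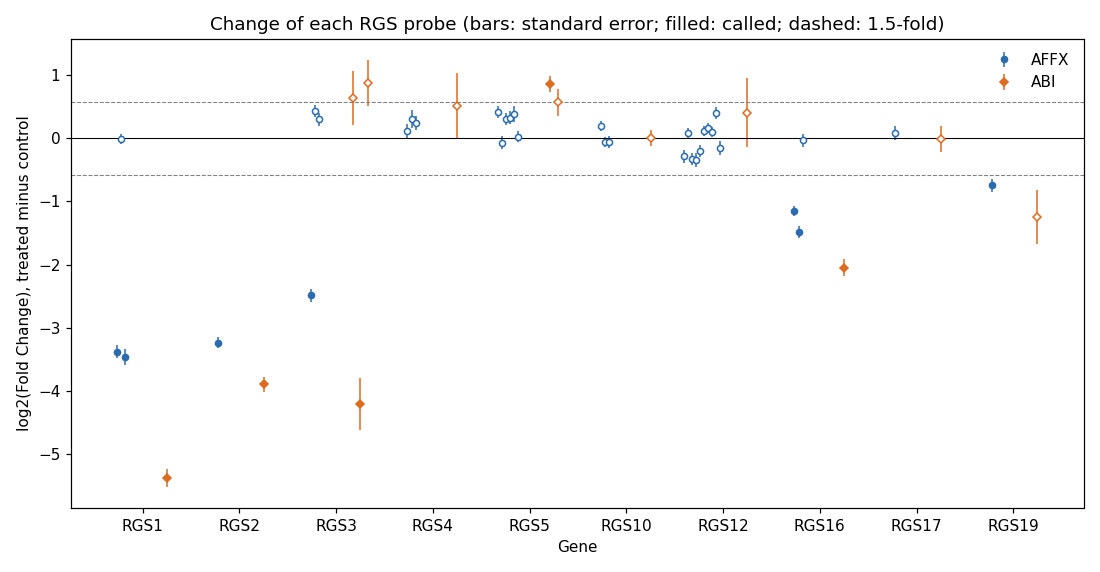
Log2(Fold Change), treated minus control, of each of the 47 RGS probes by gene, with standard errors as bars, circles for AFFX, diamonds for ABI, filled symbols for called probes and dashed lines at 1.5-fold. The called probes of RGS1, RGS2, RGS3, RGS16 and RGS19 lie below 0, other probes of RGS1, RGS3 and RGS16 lie near 0 or above it, and a single RGS5 probe is called above 0.

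The platforms measured the same pools, and the 5 genes that fell on AFFX had log2(Fold Change) values further below 0 on ABI, where RGS19 was not called. The AFFX value minus the ABI value was 2.01 for RGS1 (standard error 0.17), 1.72 for RGS3 (standard error 0.418), 0.90 for RGS16 (standard error 0.157) and 0.66 for RGS2 (standard error 0.154). For RGS19 it was 0.49 (standard error 0.44), or 1.12 times its standard error. For RGS5 it was -0.45 (standard error 0.16), with the larger rise on ABI. The other 4 genes differed by -0.29 to 0.20 between platforms, each by less than 1.5 times its standard error. With constants added before log2, as given above for each platform, RGS19 was at -0.71 on AFFX and -0.75 on ABI. RGS1 was then at -2.88 on AFFX and -3.99 on ABI, and RGS2 at -3.20 and -3.86. By the probe set kept, RGS1 was thus further below 0 than RGS2 on AFFX only without the constant, and there by about their standard errors. The part of the dim end in the difference between platforms was not tested.

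**Figure D3:**
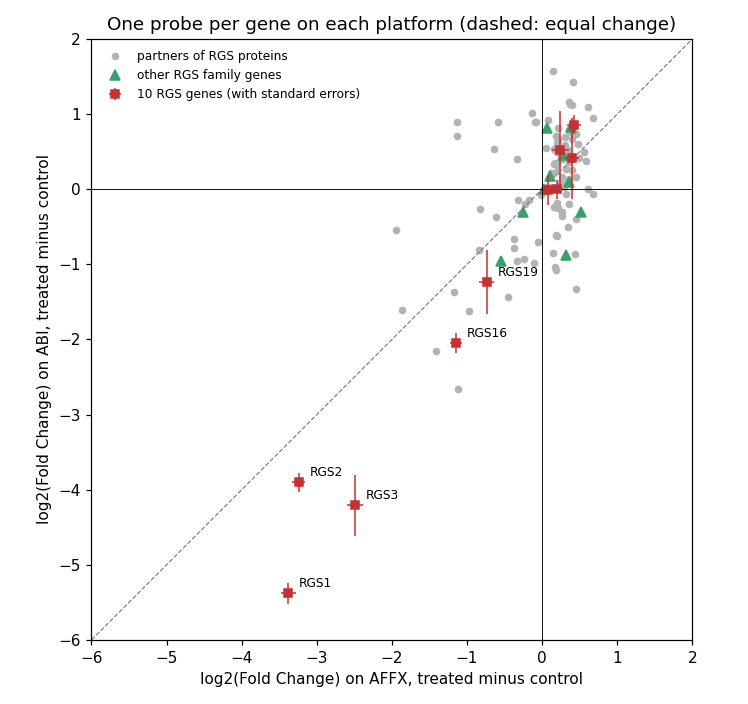
Log2(Fold Change) on AFFX (x axis) against ABI (y axis) with 1 probe per gene for the 10 RGS genes (squares, bars are standard errors), the other RGS family genes (triangles) and their signalling partners (grey circles), with a dashed line of equal change. RGS1, RGS2, RGS3, RGS16 and RGS19 lie below that line, and RGS1 is the lowest point at -3.38 and -5.38.

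Of 11 further RGS genes listed, 10 were measured on each platform, with medians of 0.19 on AFFX and 0.05 on ABI, beside 0.16 and 0.09 over all genes. With 14.2% (AFFX) and 14.8% (ABI) of all genes lower, counts of 0 and 1 among 10 genes are no result about the family. Limma called 0 of them on AFFX, where 2 were lower and 5 higher at an unadjusted p under 0.05 and the methods' t-test called 0. RGS20, an RZ gene like RGS17 and RGS19, was the 1 gene called, lower on ABI, where probe 138203 read 1.73, 1.72 and 1.66 in control and 0.64, 0.50 and 1.08 in treated arrays (log2(Fold Change) -0.96, standard error 0.185, limma adjusted p = 0.0211). On AFFX its probe set 210138_at differed by -0.55 (standard error 0.111, limma adjusted p = 0.00292), just under the fold limit, and 1569303_s_at by 0.28.

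The R7 genes RGS6, RGS7, RGS9 and RGS11, whose proteins pair with the G beta subunit GNB5, differed by 0.51, 0.31, 0.38 and 0.28 on AFFX, none of them called. On ABI they differed by -0.30, -0.88, 0.83 and 0.45, and apart from RGS11 their probes were dim there. These are values of the probe kept per gene. The other RGS7 probe sets on AFFX differed by -0.07 (206290_s_at) and 0.27 (216970_at). The other RGS7 probe on ABI, 155575, differed by 0.86 (standard error 0.707). RGS14, an R12 gene, differed by -0.26 on AFFX by the probe set kept, by -0.22 in 38290_at and by 0.35 in 211021_s_at. On ABI RGS14 differed by -0.31, with a 95% interval of -2.24 to 1.61. RGS22 differed by 0.36 on AFFX and 0.09 on ABI. RGS21 was not analysed here.

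RGS1 and RGS2 are near neighbours on chromosome 1, in the order RGS18, RGS21, RGS1, RGS13, RGS2, UCHL5 and RO60 among protein-coding genes of GRCh38.p14. Only RGS1 and RGS2 of the measured genes in that row were called. RGS13 between them differed by 0.10 (standard error 0.148) on AFFX and by 0.18 (standard error 0.132) on ABI. Its control mean of 1.84 on ABI was brighter than 23 of 25 leukocyte probes. On AFFX the RGS13 probe set kept, 210258_at, was brighter in control than 30 of 34 leukocyte probe sets. The other RGS13 probe sets, 1568751_at and 1568752_s_at, were brighter than only 1 and 11 of them, so that a fall could hardly have been read there. RGS18 on the other side of RGS1 was dim and differed by 0.03 and 0.00. UCHL5, next to RGS2, differed by 0.00 and 0.21, and RO60 by -0.29 and -0.03. RGS16 lies apart from them on chromosome 1, beside RGS8, which differed by 0.06 on AFFX and by 0.81 with a standard error of 0.641 on ABI. RGS4 and RGS5 also lie side by side on chromosome 1, and neither was called lower.

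The partners of RGS proteins were taken from 8 lists, the further RGS genes among them, with 128 genes in all, written with earlier results of these data known. On AFFX 13 of 118 measured genes were lower and 6 higher, with a median of 0.21, and on ABI 6 of 110 were lower and 11 higher, with a median of 0.20. For all AFFX genes the called shares were 14.2% (lower) and 2.49% (higher). For all ABI genes they were 14.8% (lower) and 6.31% (higher). These shares are the background for the counts of every list below, and no list was tested against them. Of 108 genes shared by the platforms, 3 were lower on both, where the background was 10.5%. Another 2 (GNAS and S1PR3) had calls of opposite direction. The opposite calls depend on the scaling, since 0 partner genes were higher on ABI with ribosomal centring. None was higher on both by limma, 19 were so at an unadjusted p under 0.05, and the methods' t-test called 0.

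Of 23 receptors measured on each platform, 3 were lower and 3 higher on AFFX (14.2% and 2.49% over all genes), and 1 was lower and 2 higher on ABI (14.8% and 6.31% over all genes). The 3 higher on AFFX, named after their values were seen, were LPAR1 and PTGER1, not called on ABI, and PTGER3, not measured there. S1PR5, also named after its values were seen, was lower on AFFX (-1.94, limma adjusted p = 3.87e-08, lower in 2 of 3 probe sets). It was not called on ABI (-0.54). ADORA2B, an adenosine receptor that raises cyclic AMP, fell on both, from 7.74 ± 0.0466 to 6.33 ± 0.145 on AFFX (log2 mean and SD, n = 3, limma adjusted p = 7.14e-07) and from 3.02 ± 0.172 to 0.86 ± 0.189 on ABI (limma adjusted p = 0.00125). S1PR3, a receptor for sphingosine 1-phosphate, was lower on AFFX (-1.14, limma adjusted p = 3.01e-06) and higher on ABI (0.90, limma adjusted p = 0.0385), where its control signal was brighter than only 3 of 25 leukocyte probes. Of its 2 AFFX probe sets 1 was called lower and 0 higher.

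Among G alpha subunits, the direct substrates of RGS proteins, 3 of 16 were lower and 1 higher on AFFX, and 0 of 14 were lower and 5 higher on ABI, where none was lower at an unadjusted p under 0.05 or by the methods' t-test either. GNAS, which encodes G alpha s, was lower on AFFX by the probe set kept (-1.13, limma adjusted p = 1.08e-05) and higher on ABI (0.71, limma adjusted p = 0.0201). Of its 12 AFFX probe sets 1 was lower and 1 higher, so the gene's direction depends on the probe. Of 17 G beta and gamma subunits 0 were called on AFFX, where 11 were higher and 0 lower at an unadjusted p under 0.05 and the methods' t-test called 0, and 1 of 16 was higher on ABI. Receptor kinases and arrestins, which silence receptors themselves, had 0 of 10 called on AFFX (5 higher and 0 lower at an unadjusted p under 0.05, and 0 by the methods' t-test) and 1 of 10 higher on ABI.

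Other proteins with an RGS box, a domain related to that of the RGS proteins, and RGS anchors formed another list. In it 5 of 11 genes were lower on AFFX (background 14.2%) and 1 of 8 on ABI (background 14.8%). Its medians were 0.12 and -0.84, beside 0.16 and 0.09 over all genes. The ABI median rests on 8 genes. Those nearest to it, ARHGEF1 (-0.86, standard error 0.436) and AXIN2 (-0.81, standard error 0.404), were not called there. AXIN1, a scaffold of the beta-catenin destruction complex, was lower on both, from 7.58 ± 0.0928 to 6.46 ± 0.0849 on AFFX (log2 mean and SD, n = 3, limma adjusted p = 2.82e-06) and from 3.84 ± 0.114 to 1.18 ± 0.436 on ABI (limma adjusted p = 0.00208). Of G protein activators and chaperones, 1 of 7 was lower and 1 higher on AFFX and 2 of 7 were lower on ABI. Second messenger effectors had 1 of 24 lower and 1 higher on AFFX, and 1 of 22 lower and 2 higher on ABI. CREB1, the transcription factor that binds cyclic AMP response elements, was the gene lower on both, at -0.98 on AFFX (standard error 0.0809, limma adjusted p = 4.35e-06, lower in 7 of 7 probe sets) and -1.62 on ABI (standard error 0.141, limma adjusted p = 0.00178).

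**Figure D4:**
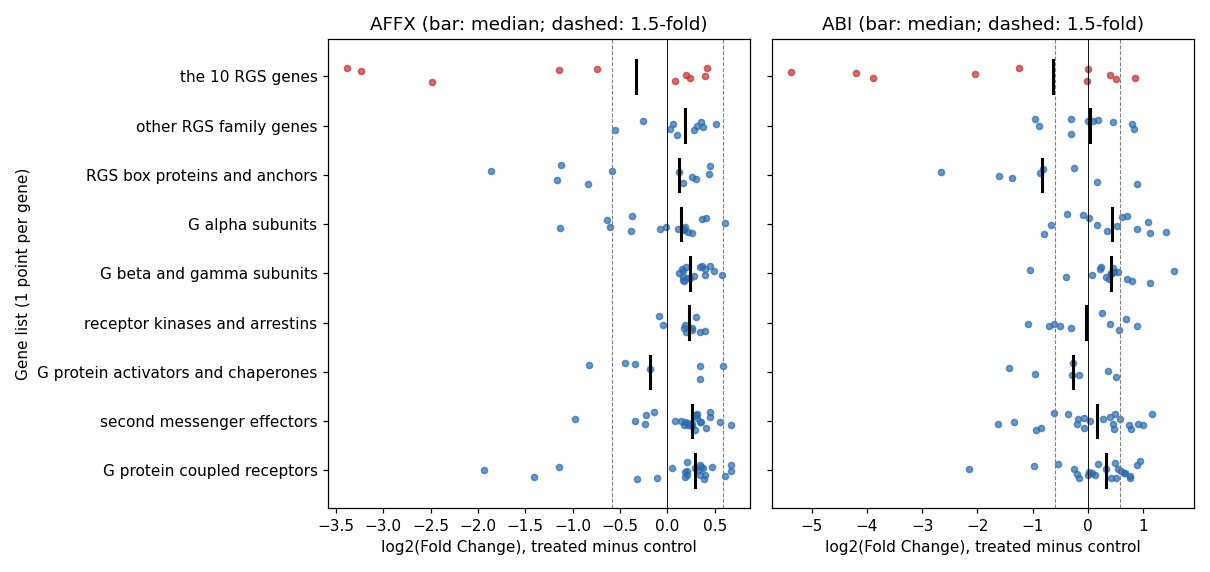
Log2(Fold Change), treated minus control, of each gene on AFFX (left) and ABI (right) by list, with 1 point per gene, a bar at each list's median and dashed lines at 1.5-fold. The 10 RGS genes (top row, selected on this contrast) reach -3.38 on AFFX and -5.38 on ABI, below every gene of the partner lists.

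The genes whose 12 array values were most like those of RGS1, by Euclidean distance after centring each platform on the gene's control mean and among 16185 other genes, were CMTR2 (distance 0.675), RPP38 (1.13), ZNF627 (1.46), ZBED5 (1.82) and FADD (1.82). CMTR2, an mRNA cap methyltransferase, had a log2(Fold Change) of -3.41 on AFFX and -5.52 on ABI. RPP38, a protein subunit of ribonuclease P, was at -3.05 and -5.00, and FADD, an adaptor of death receptors, was at -2.91 and -5.10. ZNF627 was at -3.56 and -4.62 and ZBED5 at -4.35 and -5.57. No other RGS gene was among these 5. The likeness is a description over 12 arrays of only 2 pools, and by Pearson correlation 0 of these 5 stayed among the nearest.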

How the data were processed

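Signals of A2780 cells were taken from 12 arrays, 3 control and 3 treated on each platform, grouped by the treatment in the labels. The AFFX values deposited by the authors are log2 signals from RMA with quantile normalization (version not given in the sources used here). The ABI values deposited by the authors are linear intensities scaled by a global median, in a unit that no source gives and with no flags of detection, and log2 of them was taken here. The 62 AFFX control probe sets were left out. Among them, 18 for hybridisation controls had a median difference, treated minus control, of 0.47 on the log2 scale. The part of this shift in the small AFFX differences was not tested. Probe genes came from the platform annotation.

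For each platform, limma (version 3.58.1, run in R version 4.3.3) compared the groups without pairing, and p-values were adjusted by Benjamini-Hochberg across its 54613 AFFX probe sets or 33096 ABI probes. A call needed adjusted p under 0.05 and 1.5-fold. The fit was tested on simulated data. For a gene with several probes, that with the lowest p by the methods' t-test (equal variances) was kept, which leans towards larger changes. The study chose probes by a t-test and called genes with SAM after filters. Calls by the t-test were made only here, with the same adjustment and fold limit as for limma. The RGS genes, the partner lists and the marker lists were chosen with earlier results of these data known. Genes named by rule were all RGS genes, for each list at most 4 genes with the same call on both platforms, genes called in opposite directions, and the 5 genes nearest RGS1. Promoters came from RefSeq (GRCh38.p14), where all 10 RGS genes were matched.

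Alternatives were the replicate number as a block, ribosomal centring, quantile (ABI) or median (AFFX) scaling, leaving out dim probes, a constant added before log2 (16 on AFFX, 0.5 on ABI, linear units), other fold limits, the methods' t-test, the probe with the highest mean, and each array left out in turn.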

Additional observations from a re-analysis of the deposited data

How the results depend on the processing

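The calls of RGS1, RGS2 and RGS16 as lower held on both platforms under every alternative run, and no RGS probe called in the main comparison changed sign. When arrays were left out in turn, RGS1 ranged from -5.45 to -5.31 on ABI. With ribosomal centring no RGS gene was higher on ABI (0 against 1), RGS12 was called lower on AFFX (-0.59) and RGS10 (-0.61) and RGS19 (-1.85) on ABI, and partner genes numbered 21 lower and 0 higher on AFFX, 26 lower and 0 higher on ABI, and 13 lower on both. Quantile or median scaling gave 3 partner genes higher on AFFX and 19 on ABI, a constant before log2 gave 1 higher on AFFX, and the probe with the highest mean gave 3. Without a fold limit 2 RGS genes were higher on AFFX (RGS5 and RGS12) and 1 on both platforms, with 21 partner genes lower and 50 higher on AFFX, 6 lower on both and 7 higher on both. With a 2-fold limit RGS19 was not called on AFFX, 0 RGS genes were higher on ABI, and partner genes numbered 7 lower and 0 higher on AFFX and 3 higher on ABI. The causes were not tested.

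Leaving out 1 array gave 1 to 2 RGS genes higher on ABI, with 2 only without the second treated array, when RGS3 switched to a probe called higher (1.13). Partner genes higher on AFFX ranged from 3 to 7, and on ABI from 2 to 9. For ABI the count was 9 without the first control array, 2 without the second control array, 4 without the third control array or the first treated array, and 3 without the second or the third treated array. On AFFX it was 3 without the second control array. Dim ABI probes and the median SD of 0.261 and 0.298 between ABI arrays limit small changes.

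Replicate numbers are shared by the groups, but same-numbered arrays did not deviate together in all pairs (correlations 0.00 to 0.33 on AFFX and -0.01 to 0.07 on ABI), and 1 of 3 AFFX and 2 of 3 ABI controls correlated best with their own number. With the replicate number as a block, 0 RGS genes (RGS5 was no longer called, its difference still 0.86) and 1 partner gene (against 11) were higher on ABI. By Pearson correlation in place of distance, 0 of the 5 genes nearest RGS1 were kept.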
